A study of Homo sapiens with 18 samples.

Results

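G0S2 and 9 genes that store, coat or break down triglyceride were followed through 18 RNA sequencing libraries of THESC cells, an immortalised line of stromal cells from the human endometrium. The 10 genes were found by their symbols among the 78724 genes of the deposited count table, and 7 of them had enough counts to be tested. G0S2 was chosen by its response to medroxyprogesterone acetate (MPA), a synthetic progestin, which was larger in cells with an activated progesterone receptor gene than in control cells, so its values are given as a description and carry no test. The other 9 genes were listed for their function: the lipases PNPLA2, LIPE, MGLL and LPL, the lipase partners ABHD5 and ANGPTL4, the droplet proteins PLIN2 and PLIN3, and CPT1A.

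The study engineered THESC cells with CRISPR guide RNAs against PGR, the progesterone receptor gene, to raise its isoforms in different proportions. Promoter cells carried a guide of that name and are labelled PGRB-dominant, U1U2 cells carried the U1U2 guides and are labelled PGRA/B-equivalent, and NT cells carried an NT guide and are labelled WT. All 3 lines were kept under blasticidin, moved to low-serum medium and then given 1 µM MPA or 0.01% ethanol as vehicle for 72 hours in medium with charcoal-stripped serum. Each of the 6 combinations of line and treatment has 3 libraries. The labels do not say whether a line is a clone, nor that replicates were separate cultures, so a p-value here sets a difference against the spread of these samples alone, and that spread may be technical. All libraries carry 1 batch label, so no value could be repeated within batches.

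Library totals lay between 11.9 and 33.4 M counts. PGR itself was at 264 to 303 CPM (counts scaled to a common library total) in promoter cells with MPA and 395 to 475 CPM with vehicle, at 226 to 291 CPM and 531 to 674 CPM in U1U2 cells with MPA and with vehicle, and at 76.2 to 95.1 CPM and 120 to 153 CPM in NT cells with MPA and with vehicle. The 12 stromal marker genes summed to between 9660 and 15000 CPM in every library, and individual ones moved with MPA (edgeR quasi-likelihood test, adjusted p under 0.05). In promoter cells 3 rose and 2 fell, where 6.63% of all tested genes rose and 8.40% fell. In U1U2 cells 3 rose and 2 fell (5.44% and 6.22% of all), and in NT cells 0 rose and 2 fell (2.44% and 3.48% of all). LUM fell in all lines (-0.82, -0.81 and -0.98 in promoter, U1U2 and NT cells), while COL1A1 and HAND2 rose in promoter cells (0.88 and 1.83) and U1U2 cells (0.84 and 1.30). The lines also differed in vehicle. PDGFRA, DCN and LUM were lower in promoter than in NT cells (-0.61, -0.82 and -0.66), where 6.75% of all tested genes were called. PDGFRA and DCN were lower in U1U2 than in NT cells (-0.50 and -0.59), where 1.14% were. Neither U1U2 call was kept in all alternative settings. The 10 adipocyte markers, which include LIPE and CIDEC, summed to 22.2 to 34.6 CPM; 7 of them had at most 10 counts in every library, and ADIPOQ, the gene of adiponectin, and PCK1 were at 0 in all 18. The 7 epithelial markers summed in promoter cells to 27.6 to 36 CPM with MPA and 38.2 to 53.4 CPM with vehicle, without overlap, and to 20.9 to 45.7 CPM in the other lines, where the treatments overlapped. Summed endothelial and leukocyte markers also differed with treatment. The 6 endothelial genes summed to 42.3 to 50.6 CPM over the MPA groups and 55.2 to 74.9 CPM over the vehicle groups, with 1 gene at 0 in all libraries, and the 7 leukocyte genes to 1.64 to 2.41 CPM and 3.62 to 5.62 CPM, with 2 genes at 0 in all libraries. Of these lists only TEK (42.2 to 74.5 CPM over all libraries) and PTPRC (1.55 to 5.48 CPM) had enough counts to be tested. TEK makes up nearly all of the endothelial sum and PTPRC most of the leukocyte sum, so each sum follows 1 gene. Both genes were called lower with MPA in promoter, U1U2 and NT cells. Whether these genes play a part in the MPA results below was not tested.

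Cells keep surplus fatty acids as triglyceride in lipid droplets, whose surface is coated by perilipins such as PLIN2 and PLIN3. Adipose triglyceride lipase, the product of PNPLA2, removes the first fatty acid from stored triglyceride; ABHD5 activates that enzyme and G0S2 binds and inhibits it. Hormone-sensitive lipase (LIPE) and monoglyceride lipase (MGLL) remove the remaining fatty acids, and CPT1A attaches long-chain fatty acids to carnitine for import into mitochondria. LPL releases fatty acids from triglyceride carried in blood lipoproteins, and ANGPTL4 inhibits it. Decidual cells, into which progestin drives endometrial stromal cells, accumulate glycogen and lipid droplets.

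The DNA at the starts of G0S2, the gene for whose response the set was chosen, and of PLIN2, the one member that passed a test under MPA, is printed so that the 2 can be set side by side. Each window holds 250 bases before and 50 after the gene start, from RefSeq on GRCh38.p14, 5′ to 3′ along the gene's own strand, with the match to the TATA-box core TATAA, or to its reverse complement TTATA, in capitals. The G0S2 window is chr1:209675162-209675461 on the plus strand and the PLIN2 window chr9:19127443-19127742 on the minus strand.
G0S2: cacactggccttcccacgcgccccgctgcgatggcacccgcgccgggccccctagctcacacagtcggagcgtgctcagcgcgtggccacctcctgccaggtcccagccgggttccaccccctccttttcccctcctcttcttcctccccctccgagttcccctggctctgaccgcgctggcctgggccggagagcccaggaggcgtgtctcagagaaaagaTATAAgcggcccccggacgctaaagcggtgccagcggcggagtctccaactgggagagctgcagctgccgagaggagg
PLIN2: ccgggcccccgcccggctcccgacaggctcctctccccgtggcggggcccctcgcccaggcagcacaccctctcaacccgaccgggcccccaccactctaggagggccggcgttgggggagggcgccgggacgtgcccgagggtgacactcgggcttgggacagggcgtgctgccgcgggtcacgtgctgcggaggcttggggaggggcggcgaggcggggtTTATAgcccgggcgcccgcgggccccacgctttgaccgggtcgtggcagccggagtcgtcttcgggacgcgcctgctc

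Both windows hold 1 match to the core, and in both it begins at position -28 from the gene start; that of PLIN2 reads TTATA. This motif was picked after the windows had been read, and 20.4% of all 35116 windows of this kind hold it on either strand. ANGPTL4 has 2 overlapping matches, just upstream of its start, and the windows of the other members with a RefSeq entry have none. Of the 10 members 8 have a window; MGLL and LPL do not. The G0S2 window is 69% G and C and the PLIN2 window 76.7%, against a median of 58.7% over all windows. The 6-letter steroid receptor half-site TGTTCT (reverse AGAACA) was in neither window, while 14.8% of all windows hold it, and the nuclear receptor half-site AGGTCA (reverse TGACCT) was in neither, while 13.8% hold it. Among the members only the PNPLA2 window had AGGTCA, at position -239. The palindrome of 2 steroid half-sites with 3 bases between them was in 1 of the 35116 windows and the direct repeat of 2 nuclear receptor half-sites with 1 base between them in 8, none of them at a member. A missing match says only that these letters are not in these bases.

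G0S2 was low in all vehicle groups and in NT cells with MPA, and about 4 times as high in the activated lines with MPA. In promoter cells it was at 10.8, 10.0 and 10.9 CPM with MPA, against 2.07, 2.26 and 3.15 CPM with vehicle. In U1U2 cells it was at 7.12, 7.69 and 6.44 CPM with MPA, against 1.89, 1.94 and 1.53 CPM with vehicle. In NT cells it was at 2.47, 2.09 and 2.41 CPM with MPA, against 2.34, 2.33 and 1.90 CPM with vehicle. All MPA libraries of the promoter and U1U2 lines lay above every other library, while the MPA and vehicle libraries of NT cells overlapped. These CPM values rest on 28 to 288 counts per library, scaled by edgeR's trimmed-mean (TMM) factors. In bulk RNA such as this, a change in the share of cells that express a gene cannot be told apart from a change in RNA per cell.

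**Figure D1:**
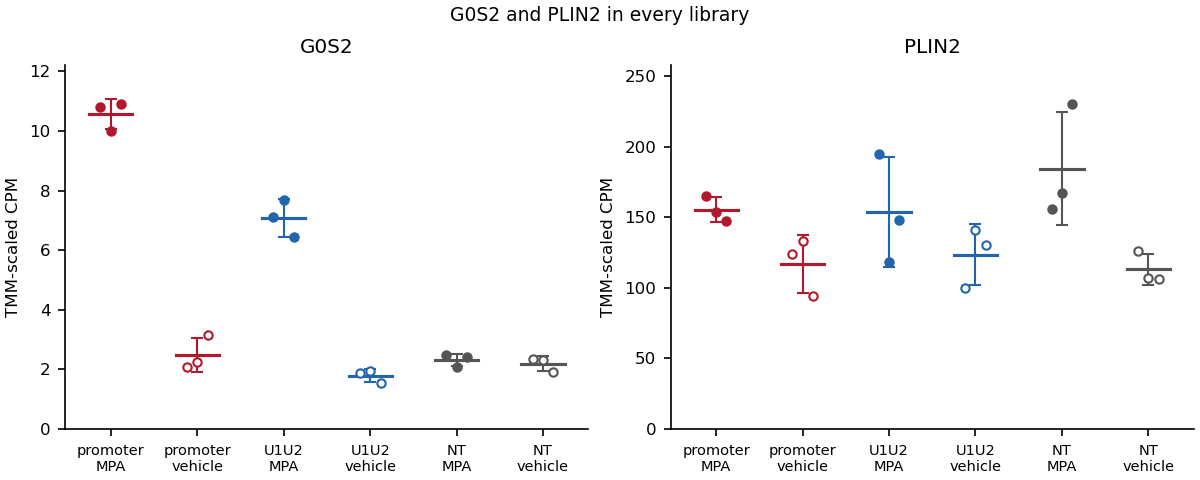
TMM-scaled CPM of G0S2 (left) and PLIN2 (right) in each of the 18 libraries, by line and treatment; filled points are MPA libraries, open points vehicle libraries, horizontal bars the mean of 3 and whiskers 1 SD. G0S2 lies between 6.44 and 10.9 CPM in the 6 MPA libraries of the activated lines and between 1.53 and 3.15 CPM in the other 12, whereas PLIN2 is highest in an NT library with MPA (230 CPM).

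The mean G0S2 level was 10.6 ± 0.511 CPM in promoter cells with MPA, 7.09 ± 0.627 in U1U2 cells with MPA, 2.49 ± 0.572 in promoter cells with vehicle, 2.32 ± 0.205 in NT cells with MPA, 2.19 ± 0.253 in NT cells with vehicle and 1.79 ± 0.220 in U1U2 cells with vehicle (SD, n = 3 each). Promoter cells with MPA lay above U1U2 cells with MPA in every library, and those above promoter cells with vehicle. Below them, neighbours in that order overlapped. The ends of that lower range did not: every promoter library with vehicle lay above every U1U2 library with vehicle.

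The log2 fold change of G0S2 with MPA was 2.07 ± 0.16 (SE) in promoter cells, 1.99 ± 0.17 in U1U2 cells and 0.07 ± 0.19 in NT cells. The response exceeded that of NT cells by 2.00 ± 0.25 in promoter cells and 1.91 ± 0.25 in U1U2 cells, differences that share the NT libraries and for which the gene was selected. Between the activated lines the responses differed by 0.08 ± 0.23 (95% interval -0.43 to 0.59), promoter minus U1U2. In MPA, promoter cells were above U1U2 cells by 0.58 ± 0.15, and in vehicle by 0.50 ± 0.18. Against NT cells in vehicle, the difference was 0.20 ± 0.18 in promoter cells and -0.30 ± 0.19 in U1U2 cells. Against NT cells in MPA, it was 2.20 ± 0.17 in promoter cells and 1.62 ± 0.17 in U1U2 cells. Promoter vehicle replicate 3, the highest vehicle library, bears on several of these: without it the promoter response was 2.30, exceeding the NT response by 2.24 and the U1U2 response by 0.32. In vehicle, the promoter to U1U2 difference was then 0.27 and the promoter to NT difference -0.03.

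G0S2 lies on chromosome 1 at 209675420 to 209676388, plus strand, in GENCODE 29 on GRCh38, with 2 exons that cover 866 bases. An antisense gene, HSD11B1-AS1, spans it on the minus strand from 209661364 to 209724125. That gene had 0 to 6 counts per library, 52 in all against 1934 for G0S2, and the strand setting of the counting was not given in the sources used here.

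Among the genes within 100 kb of G0S2, HSD11B1 and CAMK1G also had higher values in activated lines with MPA, and LAMB3, between them, did not pass the test in any of the 12 comparisons. HSD11B1, which makes the enzyme that turns cortisone into cortisol, was at 12.1, 13.4 and 12.9 CPM in promoter cells with MPA, against 0.471, 0.377 and 0.306 CPM with vehicle. It was at 8.67, 6.43 and 7.60 CPM in U1U2 cells with MPA, against 0.184, 0.312 and 0.288 CPM with vehicle. NT cells had 2.34, 2.72 and 3.65 CPM with MPA, against 0.335, 0.333 and 0.131 CPM with vehicle. With every vehicle library at 0.471 CPM or less, HSD11B1 passed the low-count filter only through the MPA groups, where it is high, so its fitted values are given without a test. The log2 fold change with MPA was 5.04 ± 0.24 in promoter cells, 4.79 ± 0.25 in U1U2 cells and 3.38 ± 0.30 in NT cells, where that of G0S2 was 0.07. The MPA libraries lay above the vehicle libraries in every line, NT cells included.

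CAMK1G, which encodes a calcium- and calmodulin-dependent kinase, was at 14.2, 11.5 and 12.2 CPM in promoter cells with MPA, against 3.30, 3.58 and 2.62 CPM with vehicle. It was at 5.86, 4.35 and 6.85 CPM in U1U2 cells with MPA, against 2.53, 4.12 and 3.45 CPM with vehicle, and at 2.51, 2.81 and 3.10 CPM in NT cells with MPA, against 4.77, 3.14 and 2.29 CPM with vehicle. It rose with MPA in promoter cells by 2.01 ± 0.23 (adjusted p = 4.17e-06) and in U1U2 cells by 0.75 ± 0.23 (adjusted p = 0.0398), a call that 6 of 11 alternative settings did not keep. In NT cells the change was -0.26 ± 0.25 (adjusted p = 0.658). LAMB3, a laminin chain, changed with MPA by -0.21 ± 0.18 in promoter cells, -0.29 ± 0.18 in U1U2 cells and 0.05 ± 0.19 in NT cells (adjusted p = 0.498, 0.383 and 0.928 in that order).

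**Figure D2:**
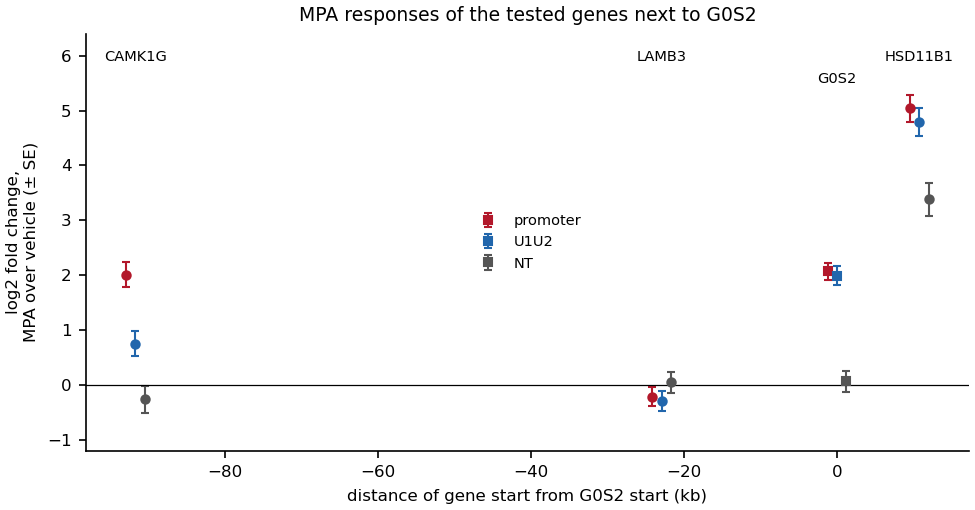
Log2 fold change with MPA (± SE, 3 libraries against 3) of the tested genes within 100 kb of G0S2, placed by the distance of each gene's start from that of G0S2 in kb; squares are G0S2, circles its neighbours, and the lines are offset sideways for legibility. HSD11B1 is above 3 in all lines, G0S2 is near 2 in the activated lines and near 0 in NT cells, CAMK1G is graded from promoter to NT cells, and LAMB3 is near 0.

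Of the 6 other testable members, PLIN2 was the only one called in any of the 12 comparisons, for higher RNA in NT cells with MPA. A member was called at a Benjamini-Hochberg adjusted p under 0.05 in an edgeR quasi-likelihood fit over 15558 genes, and every adjusted p given here is from that fit. With MPA against vehicle, 0 of 6 were called in promoter cells, where 15.0% of all tested genes were (6.63% higher and 8.40% lower), 0 of 6 in U1U2 cells, where 11.7% were (5.44% higher and 6.22% lower), and 1 of 6 in NT cells, where 5.93% were (2.44% higher and 3.48% lower). The median log2 fold change of the 6 was -0.14 in promoter cells, -0.02 in U1U2 cells and 0.11 in NT cells, beside 0.00, 0.03 and 0.02 over all tested genes. Counts of 0 and 1 among 6 genes are near these shares and are no result about the members. The share of all tested genes whose libraries do not overlap is not given here. A lack of overlap between groups is therefore a description only and does not stand in for a call. G0S2 is not in these counts, since the rule used the MPA contrasts.

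**Figure D3:**
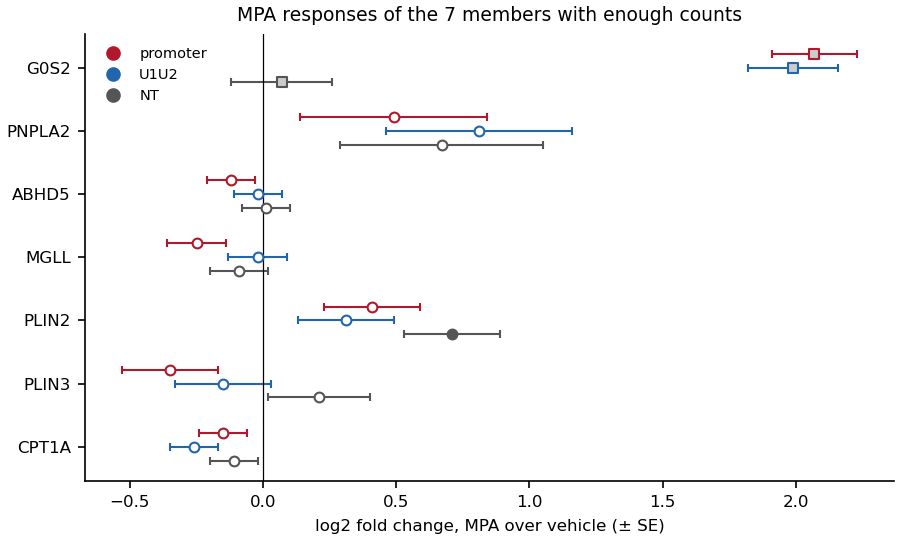
Log2 fold change with MPA (± SE, 3 libraries against 3) of the 7 members with enough counts, in promoter, U1U2 and NT cells; filled circles were called, open circles were not, and grey squares mark G0S2, which was not tested. G0S2 stands at 2.07 and 1.99 in the activated lines, PLIN2 in NT cells (0.71) is the filled circle, and the other members lie between -0.35 and 0.81.

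PNPLA2, the lipase that G0S2 inhibits, was at 8.25, 3.50 and 4.88 CPM in promoter cells with MPA, against 4.43, 3.08 and 4.2 CPM with vehicle. It was at 3.80, 5.16 and 9 CPM in U1U2 cells with MPA, against 2.40, 4.50 and 3.36 CPM with vehicle. NT cells had 4.29, 6.07 and 4.68 CPM with MPA, against 4.94, 2.67 and 2.16 CPM with vehicle. The MPA mean was the higher in every line, but the libraries overlapped in all 3, and 1 library per MPA group in the activated lines stood well above the other 2. The log2 fold change was 0.49 ± 0.35 in promoter cells, 0.81 ± 0.35 in U1U2 cells and 0.67 ± 0.38 in NT cells (adjusted p = 0.41, 0.169 and 0.399 in that order). The 95% interval in promoter cells, -0.27 to 1.25, includes both no change and a log2 change of 1.

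ABHD5, the activator of the same lipase, was even across the groups, from 38.2 to 53.3 CPM over all libraries. Promoter cells had 45.6, 46.8 and 48.4 CPM with MPA, against 50.7, 53.3 and 49.3 CPM with vehicle, values that do not overlap. The log2 fold change was -0.12 ± 0.09 in promoter cells, -0.02 ± 0.09 in U1U2 cells and 0.01 ± 0.09 in NT cells (adjusted p = 0.417, 0.944 and 0.966 in that order). The 95% intervals held every change within -0.32 and 0.21, the narrowest intervals of the members together with CPT1A. In vehicle, promoter cells exceeded NT cells in every library, by 0.25 ± 0.09 (adjusted p = 0.12).

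MGLL, whose enzyme completes triglyceride breakdown, was at 150, 140 and 137 CPM in promoter cells with MPA, against 172, 159 and 176 CPM with vehicle, again without overlap. The change of -0.25 ± 0.11 there did not pass (adjusted p = 0.162); it was called when only those 6 libraries were fitted (-0.26, adjusted p = 0.0364). In U1U2 cells the change was -0.02 ± 0.11 and in NT cells -0.09 ± 0.11 (adjusted p = 0.954 and 0.738 in that order), over ranges that overlapped. Between the lines in vehicle, promoter cells exceeded U1U2 cells by 0.31 ± 0.11 (adjusted p = 0.339) and NT cells by 0.27 ± 0.11 (adjusted p = 0.165).

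LIPE, the hormone-sensitive lipase, was close to absent from the counts, with 0 to 8 per library and 43 in all. Summed over 3 libraries, it had 7 counts with MPA and 10 with vehicle in promoter cells, 10 and 5 in U1U2 cells, and 10 and 1 in NT cells. The ratio of summed CPM, MPA over vehicle, was 0.781 (95% counting interval 0.252 to 2.27) in promoter cells, 2.34 (0.728 to 8.71) in U1U2 cells and 6.96 (0.99 to 302) in NT cells. Every interval includes 1, and 8 of the 10 NT counts came from 1 library. These intervals cover counting error only, since reads without molecular identifiers are not independent molecules.

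PLIN2, the main droplet coat protein outside adipocytes, was the most abundant member per length of transcript. NT cells had 156, 167 and 230 CPM with MPA, against 126, 107 and 106 CPM with vehicle. Promoter cells had 165, 154 and 147 CPM with MPA, against 124, 133 and 93.9 CPM with vehicle, and U1U2 cells had 195, 118 and 148 CPM with MPA, against 99.6, 141 and 130 CPM with vehicle. The groups did not overlap in NT and promoter cells and did in U1U2 cells. PLIN2 rose in NT cells by 0.71 ± 0.18 (adjusted p = 0.0246). The change was 0.41 ± 0.18 in promoter cells (adjusted p = 0.148) and 0.31 ± 0.18 in U1U2 cells (adjusted p = 0.32). The NT call rests on single libraries: it was 0.66 without NT vehicle replicate 2 (adjusted p = 0.119), 0.66 without NT vehicle replicate 3 (adjusted p = 0.106) and 0.52 without NT MPA replicate 3 (adjusted p = 0.162). In promoter cells the change was called without the low-count filter (0.40, adjusted p = 0.00685) and with only those 6 libraries fitted (0.40, adjusted p = 0.0333).

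The PLIN2 responses of the activated lines were not shown to differ from that of NT cells. The difference was -0.30 ± 0.26 for promoter cells (95% interval -0.85 to 0.26, adjusted p = 0.581) and -0.39 ± 0.26 for U1U2 cells (95% interval -0.95 to 0.16, adjusted p = 0.582). The point estimates run against those of G0S2, whose response was 2.00 and 1.91 larger than in NT cells.

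PLIN3, a perilipin that moves between cytosol and young droplets, was at 14.8, 13.3 and 14.3 CPM in promoter cells with MPA, against 20.6, 18.5 and 15.0 CPM with vehicle, without overlap. The change there was -0.35 ± 0.18 (adjusted p = 0.233). In U1U2 cells it was -0.15 ± 0.18 and in NT cells 0.21 ± 0.19 (adjusted p = 0.688 and 0.626 in that order), with overlap in both. In vehicle, promoter cells exceeded NT cells by 0.48 ± 0.19 (adjusted p = 0.144), a difference called without the low-count filter (0.52, adjusted p = 0.0362) and without NT vehicle replicate 1 (0.70, adjusted p = 0.0291).

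CPT1A, the entry step of mitochondrial fatty acid oxidation, was at 78.3, 74.1 and 81.2 CPM in U1U2 cells with MPA, against 91.4, 96.7 and 92.4 CPM with vehicle. Those groups did not overlap, and the change of -0.26 ± 0.09 fell short of the threshold (adjusted p = 0.0555); it was called with DESeq2 (-0.27, adjusted p = 0.0182) and with DESeq2's size factors in edgeR (-0.27, adjusted p = 0.0428). Promoter cells had 87.0, 73.8 and 72.8 CPM with MPA, against 89.2, 84.7 and 84.8 CPM with vehicle, a change of -0.15 ± 0.09 (adjusted p = 0.296). NT cells had 78.4, 89.7 and 84.4 CPM with MPA, against 99.8, 90.9 and 82.4 CPM with vehicle, a change of -0.11 ± 0.09 (adjusted p = 0.563). Both of these pairs overlapped.

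LPL gave no count in any of the 18 libraries. A count of 0 allows up to 3 counts, or 0.0835 to 0.251 CPM per library and 0.00691 CPM over the 432 M counts together. Its inhibitor ANGPTL4, a secreted protein, had 0 to 7 counts per library and 41 in all, most of them in MPA libraries. Summed over 3 libraries, there were 10 counts with MPA and 3 with vehicle in promoter cells, 15 and 2 in U1U2 cells, and 10 and 1 in NT cells. The ratio of summed CPM, MPA over vehicle, was 3.72 (95% counting interval 0.958 to 21) in promoter cells, 8.76 (2.04 to 79) in U1U2 cells and 6.96 (0.99 to 302) in NT cells. All 3 ratios were above 1, and the interval of U1U2 cells excludes 1 as far as counting error goes.

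**Figure D4:**
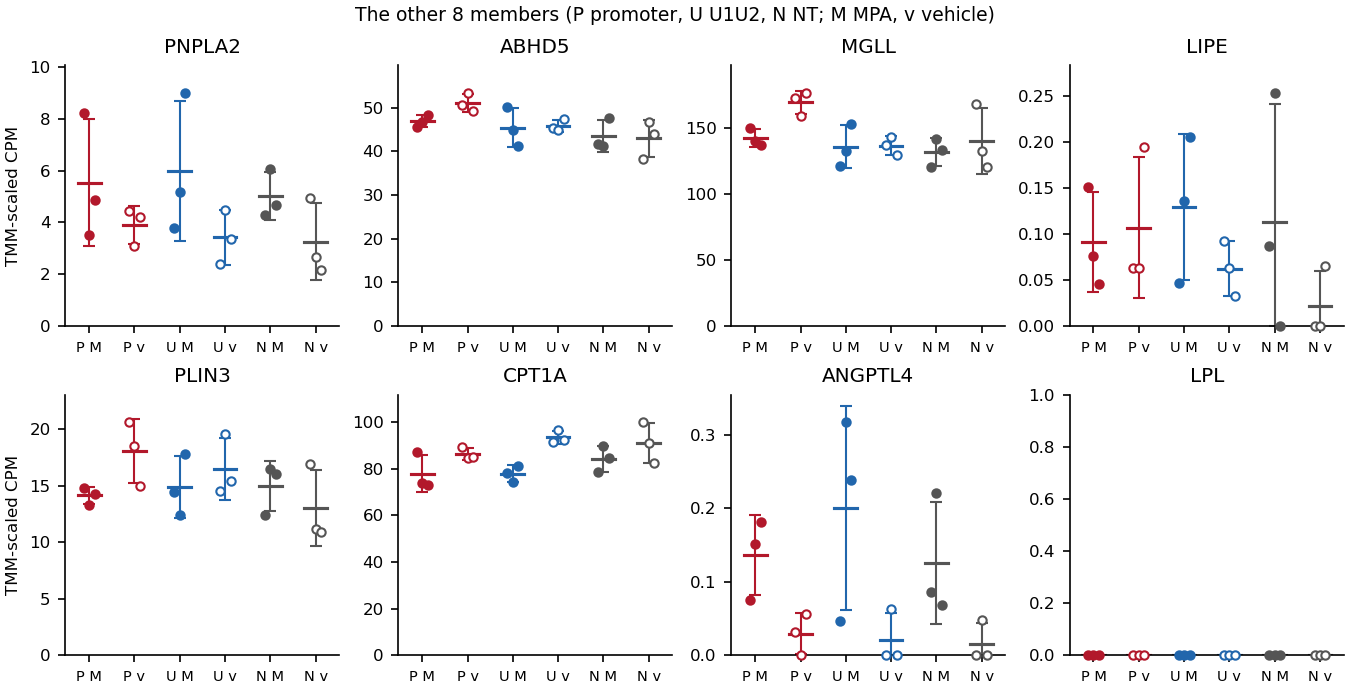
TMM-scaled CPM of the 8 members other than G0S2 and PLIN2 in each library, with MPA (M, filled) left of vehicle (v, open) for promoter (P), U1U2 (U) and NT (N) cells; horizontal bars are means of 3, whiskers 1 SD, ended at 0 where they would pass it, and each panel has its own axis from 0. ABHD5, MGLL and CPT1A vary little, PNPLA2 varies within groups (up to 9 CPM), LIPE and ANGPTL4 stay under 0.32 CPM, and LPL is at 0 throughout.

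Divided by the merged exon length of each gene, the mean level over all libraries was 27.8 CPM per kb for PLIN2, 13.0 for CPT1A, 12 for MGLL, 6.09 for ABHD5, 5.42 for PLIN3, 5.09 for G0S2, 1.18 for PNPLA2, 0.0355 for ANGPTL4, 0.0168 for LIPE and 0 for LPL. On that scale G0S2 was at 12.2 ± 0.590 CPM per kb in promoter cells with MPA and 2.88 ± 0.661 with vehicle, and PNPLA2 at 1.44 ± 0.636 with MPA and 1.02 ± 0.189 with vehicle (SD, n = 3 each). In NT cells G0S2 was at 2.68 ± 0.237 CPM per kb with MPA and 2.53 ± 0.293 with vehicle, and PNPLA2 at 1.30 ± 0.244 with MPA and 0.847 ± 0.385 with vehicle. G0S2 RNA was thus above PNPLA2 RNA per kb in all 4 of these groups, with gene lengths from GENCODE 29; the annotation used for counting was not given in the sources used here.

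Between the lines, 0 of the 6 members tested were called in any comparison, at a fixed treatment or in the responses. In vehicle the background was 1.14% of all tested genes for U1U2 against NT cells, 6.75% for promoter against NT cells and 0.784% for promoter against U1U2 cells. In MPA it was 1.72%, 4.15% and 0.328% for the same pairs in that order. For the differences of MPA responses it was 0.219% between U1U2 and NT cells, 1.56% between promoter and NT cells and 0.0129% between promoter and U1U2 cells. At such shares a count of 0 among 6 genes is no result about them. At an unadjusted p under 0.05, edgeR gave 3312 genes for promoter against NT cells in vehicle and 2307 for the difference of their responses.

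Around the members, 95 of the 134 genes on 12 lists of pathways and cell markers could be tested, and several fatty acid genes moved with MPA in all 3 lines. Of 14 tested genes for fatty acid uptake and activation, 1 rose and 2 fell in promoter cells, where 6.63% of all tested genes rose and 8.40% fell. In U1U2 cells 1 rose and 3 fell (5.44% and 6.22% of all), and in NT cells 1 rose and 3 fell (2.44% and 3.48% of all). FABP3, a fatty acid binding protein of the cytosol, was at 15.6, 16 and 14 CPM in promoter cells with MPA, against 31.6, 25.2 and 34.6 CPM with vehicle, a fall of -1.01 ± 0.15 on the log2 scale (adjusted p = 0.000131). FABP3 fell by 0.97 in U1U2 cells and by 0.66 in NT cells (adjusted p = 0.000239 and 0.0128), the NT call being lost in 2 of 11 alternatives. SLC27A2, a fatty acid transporter and acyl-CoA synthetase, fell by 1.58 in promoter cells, 1.35 in U1U2 cells and 1.39 in NT cells (adjusted p = 0.00013, 0.000641 and 0.00182). ACSL1, which activates fatty acids to acyl-CoA, rose by 0.60 in promoter cells, 0.68 in U1U2 cells and 0.55 in NT cells (adjusted p = 0.00591, 0.0028 and 0.0252), the NT call being lost in 5 of 11 alternatives. FABP4 fell by 0.51 in U1U2 cells and 0.68 in NT cells (adjusted p = 0.0147 and 0.00379), with -0.36 ± 0.13 in promoter cells (adjusted p = 0.0827); the U1U2 call was lost without U1U2 vehicle replicate 2. The median log2 fold change of the 14 genes was -0.05, 0.01 and -0.12 in promoter, U1U2 and NT cells.

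In triglyceride synthesis, 1 of 11 tested genes rose and 3 fell in promoter cells, 1 rose and 1 fell in U1U2 cells, and 0 rose and 1 fell in NT cells, beside called shares of 15.0%, 11.7% and 5.93% over all tested genes. LPIN1, a phosphatidate phosphatase that makes diacylglycerol, was at 124, 126 and 125 CPM in promoter cells with MPA, against 187, 190 and 198 CPM with vehicle. LPIN1 fell by 0.62 there, by 0.56 in U1U2 cells and by 0.65 in NT cells (adjusted p = 2.48e-06, 9.93e-06 and 3.79e-06), a size shared by all lines. Its relative LPIN3 rose by 0.94 ± 0.24 in U1U2 cells (adjusted p = 0.0148), a call lost without U1U2 vehicle replicate 3 or U1U2 MPA replicate 3, with 0.66 ± 0.24 in promoter cells and 0.86 ± 0.25 in NT cells (adjusted p = 0.074 and 0.0527). In promoter cells GPAM, the mitochondrial acyltransferase of the first step, rose by 0.36 ± 0.08 (adjusted p = 0.00484). Also in promoter cells LPIN2 fell by 0.54 and AGPAT5 by 0.32 (adjusted p = 0.0195 and 0.0311), calls lost in 4 and 7 of 11 alternatives. The median of the 11 genes was -0.13, -0.07 and 0.11 in promoter, U1U2 and NT cells.

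The fit held 7 genes of droplet coat and assembly, of which CIDEC is described without a test. Among the others 0 were called in promoter and U1U2 cells and 1 rose in NT cells. The called shares over all tested genes were 15.0%, 11.7% and 5.93% in promoter, U1U2 and NT cells. Counts so small are near these shares and are no result about the genes. CIDEC, a protein of droplet contact sites that enlarges droplets, was at 0.377, 0.190 and 0.226 CPM in promoter cells with MPA, against 0.0629, 0 and 0 CPM with vehicle. U1U2 cells had 0.703, 0.951 and 1.02 CPM with MPA, against 0.0461, 0.0312 and 0.032 CPM with vehicle, and NT cells had 0.0866, 0.253 and 0.275 CPM with MPA, against 0.0837, 0 and 0 CPM with vehicle. CIDEC passed the low-count filter only through U1U2 cells with MPA, where it is high, so no test of it is given. Summed over 3 libraries CIDEC had 66 counts with MPA and 3 with vehicle in U1U2 cells, a CPM ratio of 25.7 (95% counting interval 8.42 to 128). The ratio was 11.2 (2.71 to 98.5) in promoter cells and 9.74 (1.48 to 412) in NT cells, wide intervals that overlap. All of these intervals cover counting error only and leave out the spread between libraries. FITM2, which helps droplets bud from the endoplasmic reticulum, rose in NT cells by 0.44 ± 0.12 (adjusted p = 0.0381), lost in 6 of 11 alternatives.

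Of 11 other lipases, 2 fell in promoter cells with MPA, where 8.40% of all tested genes fell. In U1U2 and NT cells 0 were called, beside 11.7% and 5.93% of all tested genes. LIPA, the lysosomal acid lipase, was at 307, 312 and 312 CPM in promoter cells with MPA, against 450, 537 and 409 CPM with vehicle, and fell by 0.58 (adjusted p = 0.000853). ABHD6, a monoacylglycerol hydrolase, fell there by 0.61 (adjusted p = 0.00759), lost without promoter MPA replicate 3. LIPA changed by -0.26 ± 0.11 in U1U2 cells and -0.14 ± 0.11 in NT cells (adjusted p = 0.148 and 0.552). Of 15 tested genes of mitochondrial fatty acid oxidation, 0 were called by edgeR with MPA in any line, beside 15.0%, 11.7% and 5.93% of all tested genes in promoter, U1U2 and NT cells; at an unadjusted p under 0.05 all tested genes counted 4175, 3612 and 2636 in the same order. Their median was -0.10 in promoter cells, -0.03 in U1U2 cells and 0.13 in NT cells. Of 13 PPAR and lipid-sensing regulators, 0 rose in any line and 1, 2 and 0 fell in promoter, U1U2 and NT cells. Over all tested genes 6.63%, 5.44% and 2.44% rose and 8.40%, 6.22% and 3.48% fell in that order. Counts so small are near these shares and are no result about the list. PPARGC1B, a coactivator of oxidative genes, fell by 0.67 in promoter cells and 0.76 in U1U2 cells (adjusted p = 0.015 and 0.00637). ACACA, the carboxylase of fatty acid synthesis, fell by 0.43 in U1U2 cells (adjusted p = 0.00784). The PPARGC1B call in promoter cells was lost in 4 of 11 alternatives and the ACACA call in 2 of 11. Of the 8 partners of LPL, 5 were tested and 0 were called, a count near the shares above and no result about them.

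**Figure D5:**
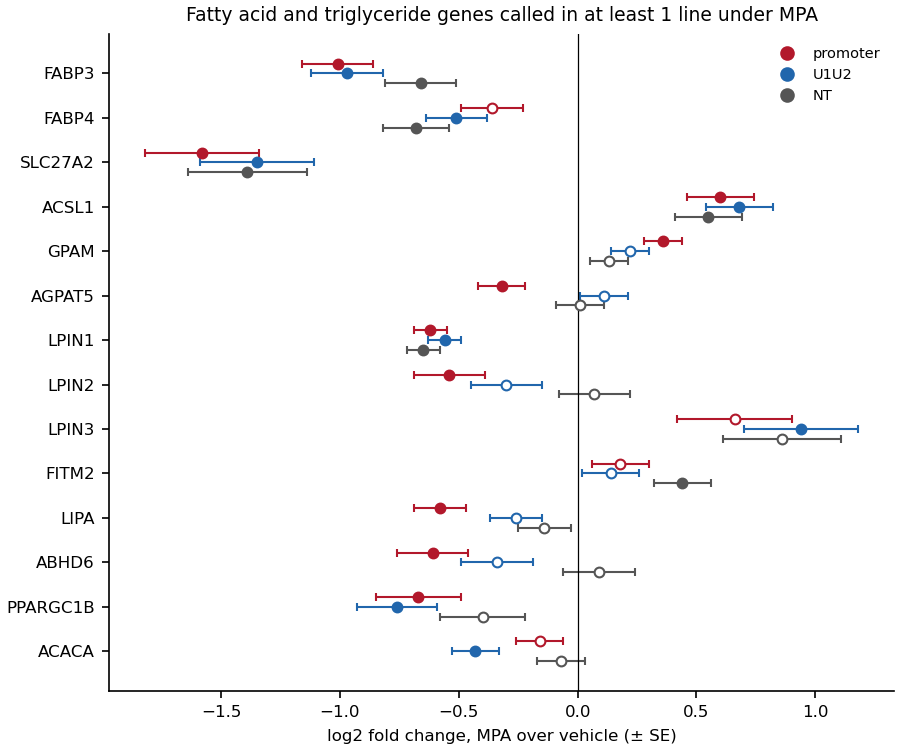
Log2 fold change with MPA (± SE, 3 libraries against 3) of the 14 listed fatty acid and triglyceride genes called in at least 1 line, without CIDEC; filled circles were called in that line and open circles were not. FABP3, SLC27A2 and LPIN1 are filled and below 0 in all lines, and ACSL1 is filled and above 0 in all lines.

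Across lines at a fixed treatment, few of these genes were called, near the shares over all tested genes, so the counts are no result about the lists. With vehicle, promoter cells had more AGPAT5 RNA than NT cells (0.35, adjusted p = 0.0374) and less LIPC, SIK2 and ACAA2 (-0.97, -0.23 and -0.36, adjusted p = 0.0167, 0.047 and 0.00942). These were 1 of 11, 1 of 11, 1 of 13 and 1 of 15 tested genes on their lists, beside 6.75% of all tested genes. With MPA, promoter cells had less ACAA2, a thiolase of fatty acid oxidation, and less FABP3 than NT cells (-0.31 and -0.57, adjusted p = 0.0271 and 0.0478). That was 1 of 15 and 1 of 14 tested genes on their lists, beside 4.15% of all. Of these 6 calls none was kept in all 11 alternatives. No gene of the pathway lists was called for a difference between MPA responses in any pair of lines. The shares over all tested genes were 0.219% between U1U2 and NT cells, 1.56% between promoter and NT cells and 0.0129% between promoter and U1U2 cells. At such shares a count of 0 is no result about the lists.

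The 5 genes whose log2 CPM ran most like that of G0S2 over the 18 libraries, among the 11040 genes that averaged a log2 CPM of 1 or more, were RGCC, MAP2, NPAS2, SEC14L2 and ALCAM. Their Pearson coefficients with G0S2 were 0.97, 0.97, 0.97, 0.96 and 0.95, and 0.98 to 0.99 over the 6 group means. Within groups, after group means were removed, the coefficients were 0.21, 0.45, 0.37, -0.04 and 0.01, so the likeness is one of group levels, which the libraries share. RGCC, a regulator of the cell cycle, was at 107, 115 and 119 CPM in promoter cells with MPA, against 24.2, 29.1 and 26.4 CPM with vehicle. It was at 71.8, 66.9 and 64.3 CPM in U1U2 cells with MPA, against 14.1, 17.3 and 14.4 CPM with vehicle, and at 27.5, 28.9 and 28.9 CPM in NT cells with MPA, against 18.6, 18.9 and 18.7 CPM with vehicle. Unlike the near-level G0S2 values, those of RGCC were higher with MPA in NT cells, by a fitted log2 fold change of 0.60 ± 0.09. No p is given, since RGCC was picked by its likeness to G0S2 over these same libraries.

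The same coefficient between G0S2 and the members was 0.49 for PNPLA2, 0.32 for PLIN2, 0.09 for ABHD5, -0.03 for MGLL, -0.20 for PLIN3 and -0.71 for CPT1A over the 18 libraries. For CPT1A it was -0.91 over the 6 group means and 0.00 within groups. These are descriptions over libraries that share a line, a treatment and a TMM scale. CPT1A means lay at 77.9 ± 7.92 CPM in promoter cells and 77.9 ± 3.57 CPM in U1U2 cells with MPA, and at 86.3 ± 2.55 CPM and 93.5 ± 2.84 CPM in the same lines with vehicle (SD, n = 3 each). Its NT means were 84.1 ± 5.68 CPM with MPA and 91.0 ± 8.71 CPM with vehicle.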

How the data were processed

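Per the labels' protocols, RNA was column-purified with DNase treatment and sequenced from stranded poly(A) libraries. The authors deposited whole-number read counts per gene. STAR 2.6.0c, edgeR 4.2.2, R 4.4.1 and the build hg38 are named, per the submitters' processing notes, without their roles; the counter, its strand setting and its annotation are not given in the sources used here. Log2 CPM values that the authors also deposited entered no test.

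From the counts, edgeR 4.0.16 (R 4.3.3) was run with filterByExpr at a minimum count of 10 (15558 of 78724 genes kept), TMM factors, and 1 quasi-likelihood model with 6 groups over all 18 libraries (common BCV 0.129), giving 12 comparisons with Benjamini-Hochberg adjustment over all tested genes. The fit was checked on simulated counts with planted changes. For each MPA response 200 of 15265 to 15300 genes were changed, where 5.93% to 15.0% of all tested genes were called in the data. The fit recovered 59% to 62% of 2-fold changes and 31% to 32% of smaller ones. With so few changed genes an adjusted p is harder to pass, so these shares do not carry over to the data. A missing call still does not show that a gene is unchanged. Fold changes have SEs and, from 12 residual degrees of freedom, 95% intervals. Counting intervals for LIPE, ANGPTL4 and CIDEC are exact conditional binomial. Total counts of 11.9 to 33.4 M make 1 count worth 0.0278 to 0.0837 CPM. Replicates of 1 group differed beyond sampling noise in every pair (chi-square per degree of freedom 1.89 to 33.2), so none was merged in the fit. Only the counting intervals use counts summed over the libraries of a group, and they leave that spread out.

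The members and the 12 gene lists, written from general knowledge, were chosen with earlier results of these data known. Named genes are the members, PGR, at most 4 called genes per list and comparison, annotated genes within 100 kb of G0S2, and the 5 genes most correlated with it. Alternatives were DESeq2 1.42.0, its size factors, no low-count filter, a replicate block, a fit of only the groups compared, and leaving out each library. Gene positions and exon lengths come from GENCODE 29 and start-site windows from RefSeq on GRCh38.p14; protein sequences are not used here.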

Additional observations from a re-analysis of the deposited data

Results flagged for a closer look

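The response of CAMK1G, the calcium-dependent kinase gene within 100 kb of G0S2, differed between promoter and NT cells by the test of the difference itself. It was 2.27 ± 0.34 larger on the log2 scale in promoter cells than in NT cells (edgeR interaction term, adjusted p = 0.00133), and was called in all 17 alternatives, at 1.99 to 2.50. For the other pairs of lines the difference in response was not called. All 3 promoter libraries with MPA lay above all 3 with vehicle, while the NT libraries overlapped. G0S2 itself was chosen by such a difference and is left out here.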

How the results depend on the processing

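Among 2429 gene-level alternatives, 0 reversed a call, 209 ended one and 9 made one. In 53 others a value changed sign with neither side called, at sizes up to 0.32. Genes other than the members entered only in comparisons where the main fit called them, so only members could gain a call. The 209 and the 9 therefore cannot be set against each other. In the fit of only the groups compared, which has fewer libraries, counts of called genes were: NT response 491 against 922, U1U2 response 1049 against 1814, U1U2 to NT 4 against 178 in vehicle and 85 against 268 in MPA, promoter to NT in vehicle 435 against 1050, promoter to U1U2 11 against 122 in vehicle and 16 against 51 in MPA, and response differences 8 against 34 (U1U2 minus NT) and 0 against 2 (promoter minus U1U2). With the replicate block the counts were 62 (U1U2 to NT, vehicle), 69 and 25 (promoter to U1U2, vehicle and MPA), and 12, 150 and 0 for the response differences U1U2 minus NT, promoter minus NT (242 without it) and promoter minus U1U2. No pairing by replicate number was seen. Same-numbered deviations correlated at -0.521 to 0.5 in 45 pairs, 12 of them over 0.1, and 0 of 18 libraries were closest to their own number. Deviations from the mean of so few libraries cannot exclude a shared culture or preparation. DESeq2 gave 451, 258 and 86 genes for U1U2 to NT in vehicle and promoter to U1U2 in vehicle and MPA, and 115, 468 and 57 for the response differences in the same order as above. Without the low-count filter, U1U2 to NT in vehicle gave 808 and the response differences 281, 758 and 18. The cause of these moves was not tested.

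Leaving out 1 library gave 612 to 972 genes for the NT response, 23 to 639 for U1U2 to NT in vehicle, 472 to 1347 for promoter to NT in vehicle, 39 to 64 for promoter to U1U2 in vehicle, 154 to 214, 390 to 490 and 15 to 40 for U1U2 to NT, promoter to NT (645 with all) and promoter to U1U2 in MPA, and 8 to 47, 116 to 271 and 0 to 3 for the response differences. A group left with 2 libraries shares the spread of the others. Members called, G0S2 aside, were 0 to 1 in the NT response. In the U1U2 response they were 1 with DESeq2 and 1 with its size factors, CPT1A both times. Without the filter they were 2, PNPLA2 and a member with too few counts for the main fit. In the promoter response they were 1 without the filter and 2 in the fit of only the groups compared, and for promoter to NT in vehicle 1 without the filter and 0 to 2 with 1 library left out. The PNPLA2 response in U1U2 cells was 0.79 without the filter (adjusted p = 0.00486), and the MGLL difference of promoter from NT cells in vehicle was 0.43 without NT vehicle replicate 1 (adjusted p = 0.0173). The G0S2 response ranged over 1.94 to 2.30 in promoter, 1.88 to 2.05 in U1U2 and -0.03 to 0.15 in NT cells. Depth limits LIPE, ANGPTL4 and CIDEC to counting intervals and LPL to an upper limit.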

Other observations

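GPAT3, an acyltransferase of the first step of triglyceride synthesis, was not on a list and was chosen after its values were seen, for running opposite to G0S2 (Pearson coefficient -0.94 over 18 libraries, -0.98 over 6 group means, -0.08 within groups). GPAT3 was at 3.58, 2.47 and 3.34 CPM in promoter cells with MPA, against 8.80, 7.97 and 9.24 CPM with vehicle. In U1U2 cells it was at 5.72, 3.49 and 4.23 CPM with MPA, against 11.9, 14.6 and 14.2 CPM with vehicle. NT cells had 8.18, 9.29 and 9.22 CPM with MPA, against 11.1, 13.1 and 14.8 CPM with vehicle. The fitted log2 fold change was -1.47 ± 0.18 in promoter cells, -1.60 ± 0.17 in U1U2 cells and -0.55 ± 0.17 in NT cells. No p is given, since the gene was picked for this pattern. MPA libraries lay below vehicle libraries in every line.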
